A study of Drosophila melanogaster with 4 samples.

Results

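The achaete-scute complex is a cluster of proneural genes near the left tip of the Drosophila melanogaster X chromosome, and H3K27me3 over it was examined in whole embryos. The complex was taken as X from 230000 to 360000 in Release 5 of the fly genome, a window of 130 kb, and every H3K27me3-enriched region that overlapped it by at least 1 bp was included. There were 8 such regions among the 1486 of ChIP replicate 1, 16 among the 1459 of ChIP replicate 2 and 18 among the 2279 of a list deposited for the series as a whole, called the series list below. In all, 42 of 5224 listed regions fell in the window. The 4 members, achaete (ac), scute (sc), lethal of scute (l(1)sc) and asense (ase), lie in this order of rising coordinate.

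The 4 samples of the study are 2 H3K27me3 ChIP libraries and their 2 inputs, numbered 1 and 2. All come from wild-type embryos of the strain Oregon-R (Oregon-R-modENCODE) collected at 14 to 16 h of development, and no sample carries a mutation or had a treatment in the labels. Chromatin was cross-linked with formaldehyde, and each input served, per the labels, as control for the calls of the ChIP library of its own number. Embryos came from population cages and were used whole, so a low score from few marked cells and a weak mark in all cells cannot be told apart. Nothing in the labels says whether the replicates came from separate embryo collections. The score of a region is the authors' own value, of unknown scale, and is used here only to rank and describe regions. Read depth is unknown, and a stretch with no region in a list is one where nothing passed the submitters' cut-off.

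H3K27me3 is the histone mark written by Polycomb repressive complex PRC2 and is found over developmental genes that are kept silent. The proneural genes encode basic helix-loop-helix transcription factors that pair with the broadly expressed partner Daughterless, bind E-box sequences and give ectodermal cells the competence to become neural precursors. Their expression is transient: a cluster of cells starts to express them, Notch signalling confines expression to the selected precursor, and it then ceases as that cell's lineage differentiates. ac and sc are best known for the sensory bristles of the body surface, and sc also acts in counting X chromosomes during sex determination. l(1)sc is used widely in the formation of embryonic neuroblasts and in muscle progenitors. ase differs from the others in being expressed in neural precursors after they have been selected, and in neuroblasts.

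All 4 genes were found by symbol in the RefSeq gene table, in the order given above. That table is in Release 6, so none of its coordinates was used and no gene was placed on a particular region. It gives only neighbours. On the left, ac is preceded by the long noncoding RNA gene yar and by yellow (y), which is needed for black cuticle pigment. Between ac and sc the table lists 3 long noncoding RNA genes, lncRNA:CR44751, lncRNA:CR44752 and lncRNA:CR44753. No gene is listed between sc and l(1)sc, and 1, Pgcl, is listed between l(1)sc and ase. To the right of ase comes Cyp4g1, a cytochrome P450 gene known for its part in making cuticular hydrocarbons in oenocytes.

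H3K27me3 was called at the achaete-scute complex in both replicates, as many short regions of low score, none of them 10 kb wide as deposited. The 8 regions of replicate 1 were 1737 to 4258 bp wide with a median of 2850 bp, and the 16 of replicate 2 were 1303 to 5555 bp wide with a median of 2090.5 bp. Over the whole lists the median width was 2568.5 bp in replicate 1 and 2717 bp in replicate 2. None of the 42 regions reached 10 kb. This width was reached by 300 of 1486 regions of replicate 1 and 311 of 1459 of replicate 2. In the series list 332 of 2279 reached it, so most regions of each list were also under 10 kb. The widest of the 42 was a 9553 bp region of the series list. Several gaps were short, with 3 of 7 in replicate 1 and 8 of 15 in replicate 2 under 1 kb. With regions under 1 kb apart merged, 288286 to 299340 and 337932 to 351717 would each be a region above 10 kb in replicate 2. The same would hold in the series list for 287862 to 299480 and 338003 to 351612. No merged region of replicate 1 would reach 10 kb. In bases, 23.3 kb of the window were called in replicate 1 and 42.1 kb in replicate 2, which is 17.9% and 32.4% of it, or 25.2% ± 10 (SD, n = 2). The share of the whole X was 10.2% ± 0.24 (SD, n = 2), and of the 6 major arms 12.1% ± 0.30 (SD, n = 2). Each replicate thus had a larger share called in the window than over X or the major arms. The SD of the window's share was also the larger one, and with 2 values each these shares were not tested.

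**Figure D1:**
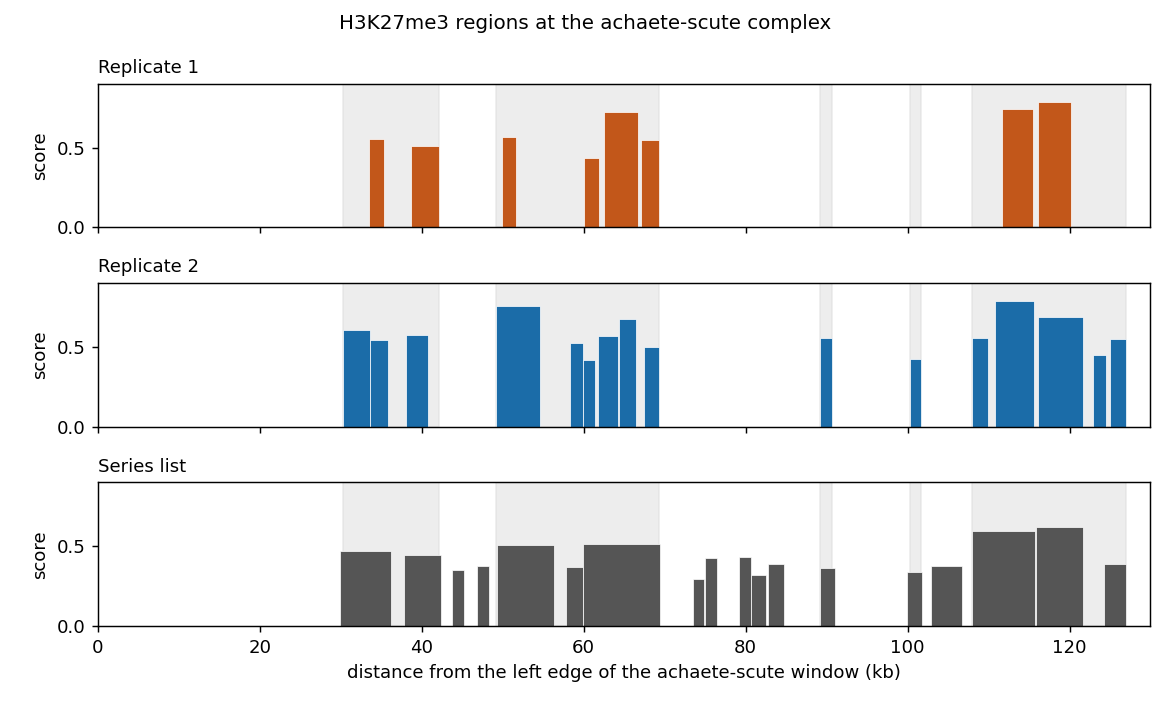
H3K27me3 regions in the achaete-scute window, drawn to scale as bars whose width is the region and whose height is its score, against the distance in kb from the left edge of the window, for replicate 1, replicate 2 and the series list. Grey bands are the 5 blocks formed by the regions of either replicate. The 8 regions of replicate 1 fall in 3 of the blocks, while replicate 2 and the series list also have regions in the other 2.

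The calls of the complex were isolated at their end of the chromosome. No list had any region of X to the left of the window, so the first call on X lay 260 kb from the start of the sequence in replicate 2 and in the series list and 263 kb from it in replicate 1. Within the window, calls began at 263461 in replicate 1, at 260274 in replicate 2 and at 259944 in the series list. They ended at 350216 in replicate 1, at 357024 in replicate 2 and at 357005 in the series list. The first region beyond the window was a short one, at 439089 to 440712 in replicate 1 (score 0.677), 437692 to 440690 in replicate 2 (0.625) and 437033 to 440881 in the series list (0.483). It was 88.9 kb from the last call of the complex in replicate 1 and 80.7 kb from it in replicate 2. Both edges of the window therefore fall in sequence with no call in any list. Between the first and last call, 26.9% of an 86.8 kb span was called in replicate 1, 43.5% of 96.8 kb in replicate 2 and 66.3% of 97.1 kb in the series list.

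Regions of either replicate less than 5 kb apart were joined, a distance chosen after the regions were seen, and this gave 5 blocks. The first block, at 260274 to 272150, is the one nearest the tip. It held 2 regions of replicate 1, at 263461 to 265364 (score 0.554) and 268673 to 272150 (0.509). Replicate 2 had 3 regions there, at 260274 to 263587 (0.607), 263648 to 265774 (0.546) and 268069 to 270802 (0.575). The left part of the block, the 3314 bp of the first replicate 2 region, was called in replicate 1 over only 3.83% of its length. Called sequence in this block came to 5.38 kb in replicate 1 and 8.18 kb in replicate 2, of which 3.97 kb were called in both.

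The second block, at 279221 to 299340, held the most regions of either replicate, 4 and 6. Replicate 1 had an isolated region at 279862 to 281598 (0.563) and then 3 neighbours at 290078 to 291856 (0.432), 292465 to 296722 (0.725) and 297091 to 299312 (0.550). Replicate 2 had a wider region at 279221 to 284566 (0.754), followed by 5 at 288286 to 289913 (0.522), 289915 to 291427 (0.417), 291731 to 294281 (0.570), 294313 to 296516 (0.675) and 297406 to 299340 (0.502). The series list had 3 regions in the block, the last of them a single 9553 bp region, at 289928 to 299480 (0.516), over the stretch that replicate 1 cut into 3 and replicate 2 into 4. The right end was placed closely in all lists, at 299312, 299340 and 299480. The block had 10.0 kb called in replicate 1 and 15.2 kb in replicate 2, with 9.14 kb in both.

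The fifth block, at 337932 to 357024, is nearest the centromere and held the highest score of each replicate in the window. In replicate 1 it held 2 regions, at 341646 to 345482 (0.739) and 346099 to 350216 (0.788), which were the highest-scoring 2 of the 8. In replicate 2 it held 5, of which the 2 that met these were at 340827 to 345623 (0.786, the highest of the 16) and 346163 to 351717 (0.686). The other 3 regions of replicate 2, at 337932 to 339956 (0.559), 352911 to 354456 (0.451) and 354971 to 357024 (0.547), met no region of replicate 1. The second highest score of replicate 2, 0.754, lay in the second block. The width-weighted mean score of the fifth block was 0.764 in replicate 1 and 0.659 in replicate 2. The second block had 0.606 and 0.621, and the first block 0.524 and 0.581. The order of these 3 blocks by score was thus the same in both replicates, with a smaller gap between the fifth and second blocks in replicate 2. Called sequence in the fifth block was 7.96 kb in replicate 1 and 16.0 kb in replicate 2, with 7.89 kb in both.

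The third block and the fourth block were single short regions of replicate 2, at 319159 to 320630 (1472 bp, score 0.558) and 330344 to 331646 (1303 bp, 0.426). Replicate 1 had no region in either. It had none at all in the 42.3 kb from 299313 to 341645, of which 13.3% was called in replicate 2 and 46.1% in the series list. This is the longest gap of replicate 1 within the complex, and it separates the second block from the fifth.

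**Figure D2:**
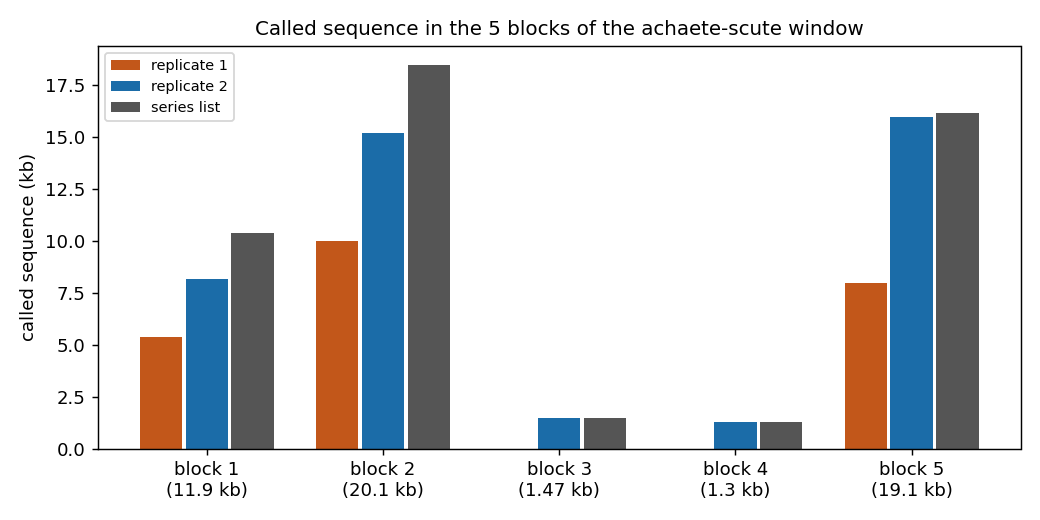
Called sequence in kb in each of the 5 blocks of the achaete-scute window, in order of rising coordinate, with the span of each block in kb below its name; bars stand for replicate 1, replicate 2 and the series list. Replicate 2 has more called sequence than replicate 1 in every block, from 1.30 kb against 0 in the fourth block to 16.0 kb against 7.96 kb in the fifth.

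Sequence called in both replicates amounted to 21.0 kb in 11 stretches of 126 to 4054 bp, all wholly within the series list. The longest ran from 346163 to 350216 and the next from 341646 to 345482 (3837 bp), both in the fifth block. These 21.0 kb were 90.0% of the replicate 1 bases in the window but 49.9% of the replicate 2 bases, and 47.3% of the bases called in either replicate. Over the 6 major arms, the bases called in both were 94.4% of replicate 1, 91.2% of replicate 2 and 86.5% of either. Only 2.33 kb were called in replicate 1 alone, against 21.1 kb in replicate 2 alone. The difference between the replicates at the complex was therefore mostly sequence called in replicate 2 alone.

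By regions, 8 of 8 of replicate 1 met a region of replicate 2 (Clopper-Pearson interval 63.1% to 100%), while over the whole list 81.3% did. Its 5 regions of at least 2 kb belong to a class of which 96.1% did so over the list, and its 3 narrower ones to a class of which 55.7% did. In the other direction 10 of 16 regions of replicate 2 met replicate 1, or 62.5% (Clopper-Pearson interval 35.4 to 84.8, for counting error only). Over the whole list 75.5% did, which lies within that interval. The interval treats neighbouring regions of a single locus as independent, so it cannot decide whether the complex differs from the list. Over the list the share that met replicate 1 was lower for narrow regions, and the complex was below the list in both width classes. Of the 10 replicate 2 regions of at least 2 kb, 8 met replicate 1 (Clopper-Pearson interval 44.4% to 97.5%, 92.7% over the list). Of the 6 under 2 kb, 2 did (Clopper-Pearson interval 4.33% to 77.7%, 44.4% over the list). Both intervals hold the value over the list, so these few regions cannot decide whether the complex was lower. The 6 regions found in replicate 2 alone were 1303 to 2054 bp wide with scores of 0.426 to 0.559, and the 10 shared ones 1513 to 5555 bp wide with scores of 0.417 to 0.786. The score ranges overlapped, but each of the 3 highest scores of replicate 2 belonged to a region that met replicate 1.

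Domains were cut differently. Of the 8 regions of replicate 1, 5 met just 1 region of replicate 2 that in turn met no other, and their 10 ends differed by 28 to 2968 bp, with a median of 622.5 bp. The closest end was the right edge of the second block. The largest difference was at the isolated region of replicate 1 in that block, which was 1737 bp wide against 5346 bp in replicate 2. In these 5 pairs the score was higher in replicate 2 in 3 and higher in replicate 1 in the other 2. The regions that were shared thus had no common direction of score between the replicates.

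Set beside the rest of each list, the regions of the complex had ordinary scores for their width. Compared with list regions of like width (within 1.2 times), 5 of 8 regions of replicate 1 and 9 of 16 of replicate 2 scored above the middle of their class. The median region stood above 60.1% of its class in replicate 1 and 52.5% in replicate 2. Over all widths they were on the low side. The median score was 0.558 in the window against 0.619 in the whole list for replicate 1, and 0.559 against 0.602 for replicate 2. The width-weighted mean score was 0.641 in replicate 1 and 0.619 in replicate 2, whereas regions of at least 10 kb anywhere had 1.89 and 1.88. No region of the window in either replicate scored above 0.788.

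**Figure D3:**
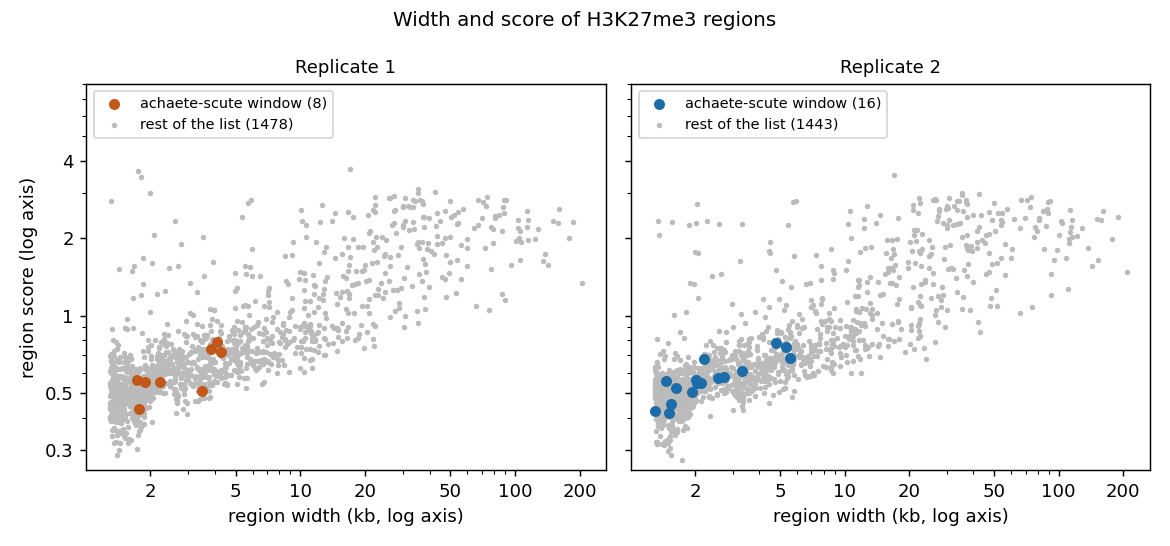
Score against width for all regions of each replicate list, on log axes, with the 8 regions of replicate 1 and the 16 of replicate 2 in the achaete-scute window as large coloured points and the rest of each list in grey. The window's regions lie within the grey cloud at widths of 1.30 to 5.55 kb and scores of 0.417 to 0.788, far from the broad, high-scoring domains at the upper right.

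By number of regions the complex ranked higher than by sequence called. The 6 major arms were divided into 922 windows of the same length, laid out on X so that one of them was the achaete-scute window. Edges of the other windows could cut through a cluster of calls, while no region crossed an edge of the achaete-scute window. Replicate 1 had more regions than the complex's 8 in 34 windows, replicate 2 had more than its 16 in 2 windows, and the series list had more than its 18 in 7. The median window held 1 region in each list. Such counts depend on how calls were cut. Merging regions under 1 kb apart left 5 regions in replicate 1 and 8 in replicate 2 at the complex, and the windows were not ranked again after merging. By mean share called, however, 169 windows exceeded the complex. Among the 49 windows whose mean share was within 1.2 times that of the complex, itself included, 8 had more regions than the complex in replicate 1, 1 had more in replicate 2 and 2 had more in the series list, with medians of 4, 3 and 4 regions. In replicate 1 the number was thus not unusual among windows of like mean share, and of the 8 such windows on X, 2 had more regions. The matching used the mean of the replicates, not the 17.9% called in replicate 1 or the 32.4% in replicate 2. It therefore cannot say whether either number is usual for the sequence called in that replicate alone. Among the 49, the complex had the narrowest widest region, with 4258 bp in replicate 1 and 5555 bp in replicate 2. The medians over these windows were 27432 bp in replicate 1 and 27609 bp in replicate 2. A region that crossed an edge counted with its full width, which could raise these medians but not the values of the complex. Of the bases called in either replicate, 47.3% were called in both at the complex, against a median of 89.9% over these windows, and 45 of them exceeded the complex. Joined across gaps under 20 kb, the calls of replicate 2 formed a single chain of 16 regions over 96.8 kb, and 6 of its 462 chains had more regions. The widest gap within that chain was 19.8 kb, just under the joining distance, so the single chain and its rank depend on that distance. The same joining left 2 chains in replicate 1, of 6 regions over 35.9 kb and of 2 regions over 8.57 kb. These ranks describe the lists and carry no test.

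The replicates also differed more at the complex than in most windows. The share called in replicate 2 minus that in replicate 1 was 14.4 percentage points. Over the 515 windows with a call the median of this signed difference was 0.232, a value in which opposite directions offset each other. In either direction, 1 other window differed by 14.4 points or more. It was also on X, from 1400009 to 1530009, and went the opposite way by 14.6 points, with 8.45% called in 4 regions of replicate 2 and 23.1% in 13 regions of replicate 1. When windows of the same length were started every 10 kb, 11 of 11938 that did not touch the complex reached 14.4 points or more. Neighbouring windows of this set overlap, so the 11 are not separate places. In 6 of the 11, on 3L and 3R, replicate 2 had the larger share, and in 5, all on X, replicate 1 had. Those on 3L all overlapped one another, with starts from 13070001 to 13120001. The largest of the 11, 16.4 points, was on 3L from 13090001 to 13220001, with 59.4% called in replicate 2 and 43.0% in replicate 1. The ratio of called bases, replicate 2 over replicate 1, was 1.80 at the complex and 1.04 over the 6 major arms. Depth and the efficiency of the precipitation could not be compared between the libraries from these files, and their part in the difference was not tested.

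**Figure D4:**
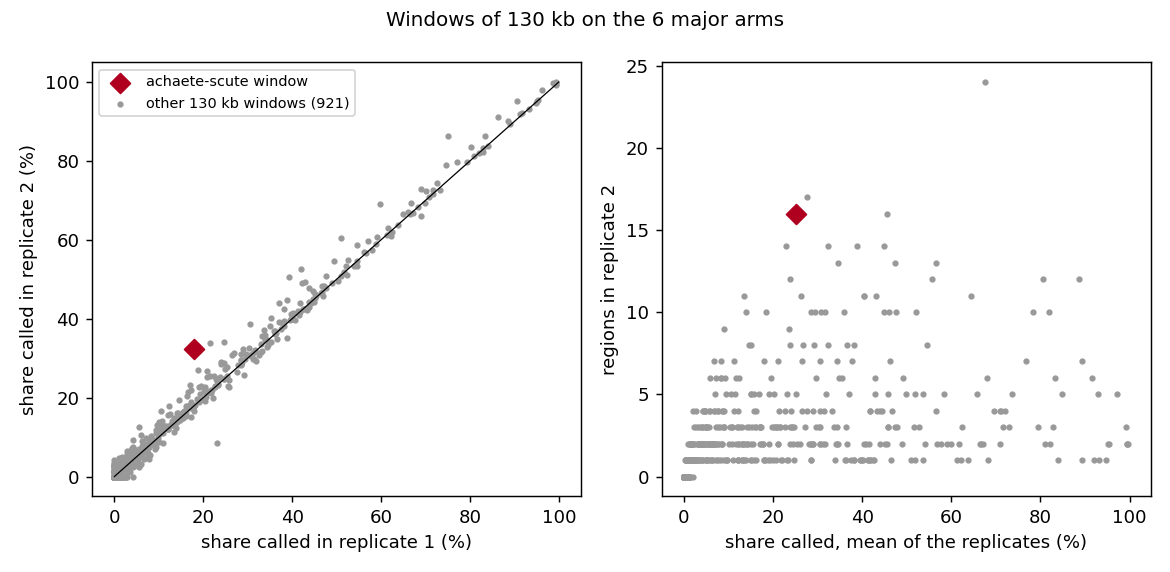
Windows of 130 kb on the 6 major arms, with the achaete-scute window as a red diamond and the other 921 in grey. Left, share called in replicate 2 against replicate 1 in percent with the line of equality; the complex lies above the line at 32.4% and 17.9%. Right, number of replicate 2 regions against the mean share called; the complex has 16 regions at a mean share of 25.2%.

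The series list, which is not independent of the replicates, covered more of the complex than either of them, 64.3 kb or 49.5% of the window. Of its 18 regions, 6 met both replicates (33.3%, against 37% over that list), 4 met replicate 2 alone (22.2%, against 12.4%), none met replicate 1 alone (9.92% over the list) and 8 met neither (44.4%, against 40.7%). Each of these values over the list lies within the Clopper-Pearson interval of the complex's own share. With 18 regions these intervals are wide, and they treat neighbouring regions of a single locus as independent. They therefore cannot decide whether the complex differs from the list. All 8 regions of replicate 1 and all 16 of replicate 2 met the series list, as did 99.2% and 99.5% over the whole lists. The 6 that met both were the widest, 4586 to 9553 bp, with scores of 0.447 to 0.624. The 8 that met neither were 1404 to 3834 bp wide with scores of 0.297 to 0.435, a range that ends just below that of the 6. Bases called in neither replicate made up 33.6% of the series list in the window, 12.3% of it on X and 11.9% over the 6 major arms.

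All 8 regions that met neither replicate lay in the gaps between blocks, of which the series list called 7.46% to 63.4%. In the 19.8 kb from 299341 to 319158, where neither replicate had a call, the series list placed 5 whole regions between 303459 and 314725 with scores of 0.297 to 0.435, and called 42.3% of the gap. Another 2 lay between the first and second blocks, at 273752 to 275171 (0.349) and 276862 to 278336 (0.375). The remaining one, 332934 to 336767 (0.379), lay between the fourth block and the fifth. Whether these stretches carry a weak mark below the replicates' threshold was not tested.

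Even with all 3 lists combined the complex was not continuous. Within the span of the calls, 17 breaks totalling 31.0 kb were called in no list, of which 13 were under 2 kb. The longest ran from 320989 to 329976 (8988 bp), between the third block and the fourth, and the next from 314726 to 319133 (4408 bp). A short one, from 345717 to 345839 (123 bp), split the highest-scoring block in all 3 lists. Around it, replicate 1 had no call from 345483 to 346098 and replicate 2 none from 345624 to 346162. Whether reads can be placed in these breaks was not examined.

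Of 1329 stretches called in both replicates on the 6 major arms, the 5 most like the longest one of the complex in width and mean score lay on other arms. That stretch was 4054 bp wide with scores of 0.788 in replicate 1 and 0.686 in replicate 2, wider than 61.3% of all and higher in mean score than 58.2%. The nearest was on 3L from 6303632 to 6307705 (4074 bp, scores 0.763 and 0.701). Next came 2L from 10600677 to 10604794 (4118 bp, 0.712 and 0.761) and 3R from 27392655 to 27396623 (3969 bp, 0.806 and 0.669). The other 2 were 2L from 14385932 to 14389887 (3956 bp, 0.788 and 0.681) and 3L from 3666131 to 3670129 (3999 bp, 0.792 and 0.651). No gene was assigned to them, and the likeness is of width and score alone.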

How the data were processed

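H3K27me3 ChIP-seq of 14 to 16 h Oregon-R embryos was analysed from 3 deposited lists of enriched regions, one for each of 2 ChIP libraries and one for the series. The 2 inputs enter only through the authors' comparison of ChIP with input. Reads were aligned with Bowtie 0.12.7, per the submitters' processing notes. Coordinates are 1-based in fly Release 5, per the file headers. The score per region is the authors' deposited value; its scale, the caller, the threshold and the making of the series list are not stated in the labels or headers. Depth is unknown, so no interval that needs it is given.

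Overlaps, shares of called bases, gaps, blocks and ranks were computed in Python 3.11.15 with numpy 2.4.6, scipy 1.17.1 and matplotlib 3.10.9. Interval arithmetic was checked base by base on simulated lists. Shared means an overlap of at least 1 bp. Like width or share means within 1.2 times. Errors are SDs over the 2 replicates, and no test was run. All regions in the window, the nearest regions outside it, all gaps and the 5 stretches most like the longest shared one (log2 width and mean score, each divided by its SD over stretches of at least 5 kb) were considered for naming. The members and rules were chosen with earlier results of these data known. Alternatives were a minimum score, merging, a minimum width, a wider window, a stricter overlap and each replicate alone.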

Additional observations from a re-analysis of the deposited data

How the results depend on the processing

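The score threshold was changed for 5 of the 7 results, and all 5 moved. A higher threshold cannot raise the number of regions or the shares of the window called, and it cannot lower the mean score. The direction of those moves was thus given by the setting. When each list was limited to scores not below its own median, the mean number of regions per replicate was 4 in place of 12, the mean share of the window called 12.9% in place of 25.2%, the share of called bases called in both replicates 43.3% in place of 47.3%, the width-weighted mean score 0.731 in place of 0.630, and the share called in the series list 33.9% in place of 49.5%. Merging regions under 1 kb apart gave 5 regions in replicate 1 and 8 in replicate 2, a mean of 6.5, and 50.5% of called bases in both replicates. A plain mean over regions gave a score of 0.591. Leaving out 1 replicate in turn gave 8 to 16 regions, 17.9% to 32.4% of the window and a score of 0.619 to 0.641, so the number of regions and the share called depend on which replicate is read. Replicate 2 had more called sequence than replicate 1 with the higher threshold (16.3% against 9.39%), with merging (34.9% against 19.2%), with a minimum width of 2 kb (25.2% against 13.8%) and in a window 20 kb wider on each side (24.8% against 13.7%). With an overlap of at least 50% of both regions, 7 of 8 regions of replicate 1 and 7 of 16 of replicate 2 were shared. No region crossed a window edge. No paired analysis was possible because no input list was analysed here, and what depth limits was not measured.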
